A study of Mus musculus with 6 samples.

Results

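The 33 genes described here are the mouse genes whose symbol is Zfp followed by a 3-digit number that starts with 9, out of 24564 genes with a row in the count tables. They were defined by symbol, with earlier results of these data known, and 304 other genes with a symbol of Zfp and a number served for comparison. Most of them encode KRAB zinc finger proteins, in which a tandem array of C2H2 fingers reads DNA and an N-terminal KRAB box recruits the corepressor TRIM28. TRIM28 brings the histone methyltransferase SETDB1 and the heterochromatin protein 1 (HP1) family, so that transposons and other targets become packed in chromatin marked by H3K9me3. The genes themselves lie in clusters of close relatives, and the 3′ exons of such clusters are known to carry the same mark, which makes them a place to look for derepression when an HP1 protein is exchanged.

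The libraries were 10x Genomics 3′ single-cell RNA-seq of mouse main olfactory epithelium, 6 in all. Both swap libraries were labelled Cbx*/* with a Cre allele. In the swap allele the floxed coding sequence of *Cbx1*, which encodes HP1β, is followed by that of *Cbx5*, which encodes HP1α, and Cre removes the first. The controls had 2 genotypes: control replicate 1 was WT with the same Cre allele, and control replicate 2 was Cbx*/*, with the swap allele and no Cre. The last pair was 1 library labelled gg8-tTA and 1 labelled gg8-tTA; tetOP2iresGFP, in which a tetracycline transactivator drives the olfactory receptor P2 with GFP. The design text names a gg8-tTA construct for all mice, which the swap and control labels do not carry, and the labels do not give ages or the number of animals in a library. The study's methods speak of biological replicates. Same-numbered swap and control libraries also share the letters that open their library names.

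The libraries held 2563 to 7703 barcodes and 32005196 to 63277934 UMIs, and 57.5% to 100% of barcodes passed the filters on UMIs and genes, the lowest share being that of control replicate 2. Any pair of libraries shared at most 13 barcodes. Although the labels give the cell type as OSN (olfactory sensory neuron) and the design text speaks of sorting, mature and immature OSNs made up 30.4% to 42.1% of the cells used and sustentacular cells, the supporting cells of the epithelium, 9.41% to 16.4%. Cells were therefore assigned to types by marker genes, none of which is a zinc finger gene of this range. In the swap and control libraries the 5 sustentacular markers summed to 51.4 to 77.5 CPM (UMIs of a gene per 1000000 UMIs of that cell group) in mature OSNs, against 26071 to 43210 in sustentacular cells, and the 8 mature OSN markers to 44.2 to 87.6 CPM in sustentacular cells, against 6467 to 9842 in mature OSNs.

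Of the 33 genes, 32 had a coding transcript in the annotation (all but *Zfp939*). The conserved letters of the KRAB A box were found in 30 of the translated sequences (not in *Zfp956* or *Zfp957*), and finger motifs in 30, with a median of 11 fingers and a range from 6 to 18. *Zfp938*, the member with the highest level in mature OSNs, shows both parts. Its KRAB stretch and 1 of its 10 fingers with the linker that follows are printed below because they are the features the family is named for. Both lie in single coding exons on the minus strand of chromosome 10 (GRCm38), at chr10:82227830-82227892 and chr10:82225813-82225896. Capitals mark the codons of the Glu-Trp and Leu-Tyr pairs in the first and of the paired cysteines and histidines that hold the zinc ion in the second.
Zfp938 KRAB A box: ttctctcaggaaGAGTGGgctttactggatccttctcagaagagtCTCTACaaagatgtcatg
Zfp938 finger and linker: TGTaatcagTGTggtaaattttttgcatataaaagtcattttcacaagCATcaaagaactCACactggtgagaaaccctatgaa

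The 33 genes were spread over 12 chromosomes, with 10 on chromosome 17, 5 each on chromosomes 7 and 8 and 3 on chromosome 13, and 28 had another gene of the wider Zfp family within 500 kb. *Zfp942* and *Zfp943* lay head to head on chromosome 17 with 55 bases between them. Sequence shared with other genes limits what the counts can say: in 9 members more than 25% of the 31-base words in the last 1000 bases of the transcript also occur in another gene. Whether such a gene is a copy elsewhere or overlaps the member was not examined by this count. For *Zfp935* the share was 100%, all of it in *Gm49359*, which has no row in the count tables. For *Zfp960* it was 91.3%, chiefly *Zfp97*, for *Zfp932* 68.1%, chiefly *Gm15446*, and for *Zfp934* 47.3%, chiefly *Zfp808*. It was 43.8% for *Zfp931*, 35.0% for *Zfp936*, 34.2% for *Zfp959*, 30.1% for *Zfp963* and 26.1% for *Zfp937*. *Zfp953* overlaps *Zfp595*, *Zfp956* overlaps *Zfp783* and *Zfp950* overlaps *Grk5*. The values of all these genes are uncertain to that extent.

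Promoter windows of 250 bases before and 50 after the start site were available from RefSeq (GRCm38.p6) for 30 of the 33 genes. Their median ratio of observed to expected CpG was 0.459, below the 0.658 of 252 other Zfp promoters and above the 0.389 of all 27025 promoters, and 9 of 30 (30%) had a ratio over 0.6, against 59.1% of the other Zfp genes and 36.4% of all. Windows are printed for the highest member in mature OSNs, for a member near the floor of detection, and for a pair that shares a sequence, with every CG in capitals. They are *Zfp938* (chr10:82241231-82241530, minus strand), *Zfp931* (chr2:178078376-178078675, minus), *Zfp943* (chr17:21962309-21962608, plus) and *Zfp944* (chr17:22361351-22361650, minus).
Zfp938 promoter: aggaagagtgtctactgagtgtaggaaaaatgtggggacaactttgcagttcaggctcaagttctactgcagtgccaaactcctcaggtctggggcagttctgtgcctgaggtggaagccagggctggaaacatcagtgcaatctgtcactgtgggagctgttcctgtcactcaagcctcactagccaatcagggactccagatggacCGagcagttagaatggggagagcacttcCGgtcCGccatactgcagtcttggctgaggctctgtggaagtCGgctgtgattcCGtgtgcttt
Zfp931 promoter: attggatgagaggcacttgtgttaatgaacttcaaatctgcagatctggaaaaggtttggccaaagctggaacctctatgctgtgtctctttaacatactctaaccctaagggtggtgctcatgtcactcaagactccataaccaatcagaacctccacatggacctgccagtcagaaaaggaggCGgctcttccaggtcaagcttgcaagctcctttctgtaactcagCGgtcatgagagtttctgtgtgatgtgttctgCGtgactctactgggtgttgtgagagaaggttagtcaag
Zfp943 promoter: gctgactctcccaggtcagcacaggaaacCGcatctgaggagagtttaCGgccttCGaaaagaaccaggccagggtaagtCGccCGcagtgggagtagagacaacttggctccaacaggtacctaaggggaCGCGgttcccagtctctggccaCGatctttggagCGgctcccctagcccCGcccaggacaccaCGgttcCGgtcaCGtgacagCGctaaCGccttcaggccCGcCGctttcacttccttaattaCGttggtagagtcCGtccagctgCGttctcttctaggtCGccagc
Zfp944 promoter: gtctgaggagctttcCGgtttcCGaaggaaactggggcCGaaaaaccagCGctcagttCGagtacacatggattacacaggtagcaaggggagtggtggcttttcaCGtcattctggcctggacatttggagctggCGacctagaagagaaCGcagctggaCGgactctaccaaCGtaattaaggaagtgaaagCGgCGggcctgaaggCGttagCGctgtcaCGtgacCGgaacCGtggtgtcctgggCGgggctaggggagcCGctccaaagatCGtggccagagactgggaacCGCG

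The *Zfp943* and *Zfp944* windows, 398.7 kb apart, have in common a run of 169 bases on opposite strands that holds 16 CG dinucleotides, and the *Zfp942* window overlaps that of *Zfp943* by 194 bases. The palindrome TCACGTGA stands in 3 of the 30 member windows (10%), which are those of *Zfp942*, *Zfp943* and *Zfp944*, in 6 of 252 other Zfp windows and in 272 of all 27025 (1.01%). The member matches are not independent. That of *Zfp942* and *Zfp943* is 1 site in the overlap of their windows, and that of *Zfp944* lies in the run it shares with *Zfp943*. Reading both strands gives the same matches, and a match is a description of the letters and not a site. The *Zfp938* window holds 5 CG (ratio 0.24) and that of *Zfp931* holds 3 (0.18), so that CpG-poor windows went with both the highest level and a level near 0. Over all members, the 9 with a ratio over 0.6 had a median of 9.27 CPM in control mature OSNs and 1 of them was below 1 CPM, while the 21 others had a median of 5.32 CPM and 5 were below 1 CPM.

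Together the 33 genes took 64100 UMIs in the 6 libraries, or 0.0208% of all UMIs. Levels below are CPM of UMIs summed over the cells of a type in a library. They count 3′ ends, introns included, and are not divided by transcript length, so an order between genes is an order of counted molecules as tagged and not of levels per length. *Zfp957* had 1 UMI and *Zfp936* 2 UMIs in all barcodes, and the next lowest were *Zfp964* (86), *Zfp960* (145), *Zfp947* (149) and *Zfp931* (208). In mature OSNs no UMI of *Zfp936* was seen in any of the 6 libraries, and in control replicate 1 a count of 0 allows up to 0.227 CPM.

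A single mature OSN carried few of these transcripts. In the 6 libraries 85.4% to 90.1% of mature OSNs had at least 1 UMI of any member, with a median of 2 members detected per cell. In sustentacular cells the share was 82.1% to 89.0%. Globose basal cells (GBCs), the dividing progenitors of the neurons, had a member UMI in 94.7% to 98.6% of cells, at larger total counts per cell.

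In control mature OSNs the most counted member was *Zfp938*, with 28.0 ± 9.4 CPM (SD, n = 2), and the 10 highest members held 64.7% of all member UMIs. *Zfp938* read 34.6 and 21.3 CPM in control replicates 1 and 2, 29.4 and 26.0 in swap replicates 1 and 2, 23.5 in the gg8-tTA library and 19.7 in the gg8-tTA; tetOP2iresGFP library. It was first in every library but the last, where *Zfp954* read 19.8. Next came *Zfp949* at 16.6 ± 6.1 CPM, *Zfp944* at 15.8 ± 1.4, *Zfp950* at 14.4 ± 2.0, *Zfp954* at 14.1 ± 3.8, *Zfp943* at 13.9 ± 3.8, *Zfp942* at 12.9 ± 2.1, *Zfp935* at 10.7 ± 2.0, *Zfp946* at 10.2 ± 2.3 and *Zfp945* at 9.95 ± 0.40. Below *Zfp938*, each neighbouring pair in this order overlapped between the control libraries. At the lower end 8 members were below 1 CPM.

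Sustentacular cells had another order. *Zfp949* led at 30.8 ± 24.6 CPM, but on 1 library: control replicate 1 read 48.2 CPM and control replicate 2 13.5 CPM, and the other 4 libraries lay between 9.75 and 19.5. *Zfp945* followed with 26.3 ± 3.2 CPM, *Zfp950* with 22.1 ± 6.0, *Zfp937* with 16.1 ± 7.5 and *Zfp938* with 14.8 ± 1.4.

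Summed per 10000 UMIs, the members made 2.26 ± 0.09 in control mature OSNs, 2.24 ± 0.11 in immature OSNs, 2.70 ± 0.06 in immediate neuronal precursors (INPs), 2.45 ± 0.14 in GBCs and 2.53 ± 0.19 in sustentacular cells (SD, n = 2). Among the 12 cell types with at least 50 cells in each control library, microvillar cells had the highest mean sum, 2.87 ± 0.39, and neutrophils the lowest, 0.60 ± 0.11. Microvillar cells read 2.60 and 3.15 in control replicates 1 and 2, which overlapped the 2.66 and 2.74 of INPs. Horizontal basal cells (HBCs), the reserve stem cells, stood at 1.71 ± 0.32, macrophages at 1.77 ± 0.22 and erythroid cells at 1.07 ± 0.04. The epithelial and neuronal types among the 12, other than HBCs, thus lay within 2.24 to 2.87, as did B-lineage cells (2.57) and ensheathing glia (2.51). Erythroid cells and neutrophils lay below them by more than the spread of the controls. The other Zfp genes were low there too, at 18.5 and 14.5 per 10000 UMIs against 42.7 in mature OSNs. Members made 5.46% of all Zfp UMIs in erythroid cells and 3.98% in neutrophils, against 5.07% in mature OSNs.

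Of the 33 genes, 30 had over 100 UMIs in all barcodes. Single members nevertheless stood higher in single types. *Zfp945* was highest in microvillar cells, 42.2 ± 4.0 CPM, above the 26.3 of sustentacular cells in both controls. *Zfp959* reached 24.3 ± 1.4 CPM in B-lineage cells, above 12.4 ± 3.3 in macrophages. *Zfp940* and *Zfp958* were highest in INPs, at 11.0 ± 0.8 and 15.8 ± 1.1 CPM, *Zfp930* in GBCs at 10.8 ± 4.3, *Zfp948* in immature OSNs at 13.8 ± 2.2 and *Zfp941* in mature OSNs at 7.70 ± 2.86. Each of these was above its second type in both control libraries. *Zfp941* was so by little in control replicate 1, with 5.68 CPM against 5.57 in immature OSNs. For most of the 30 members the highest and second types overlapped between the controls. *Zfp937* had 21.4 ± 2.6 CPM in ensheathing glia and 16.1 ± 7.5 in sustentacular cells, which overlapped, and 1.37 ± 0.41 in mature OSNs. With 2 libraries and the type picked for its level, these are descriptions without a test.

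**Figure D1:**
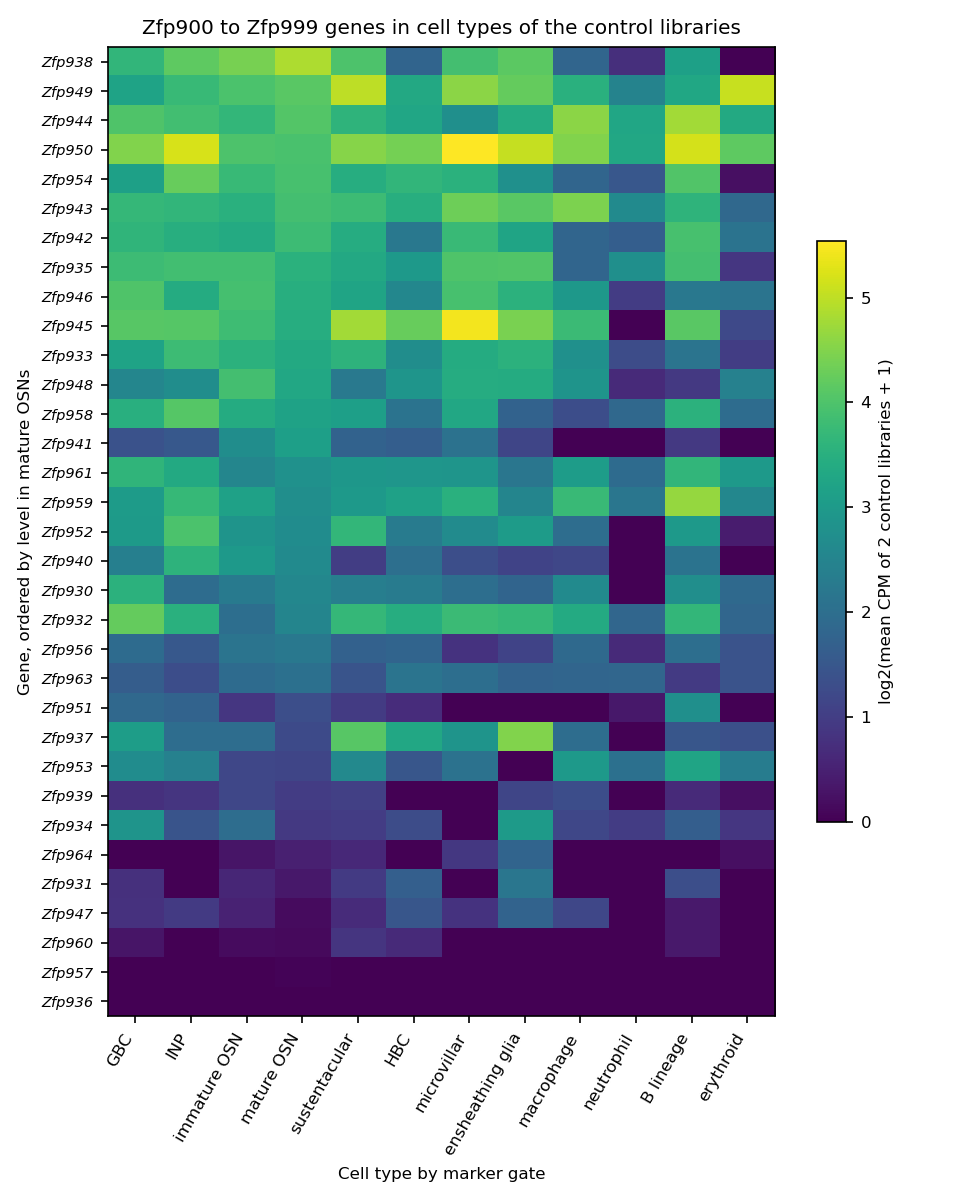
Heat map of the 33 genes (rows, ordered by level in mature OSNs) in 12 marker-gated cell types (columns) of the control libraries, where colour is log2 of the mean CPM of 2 libraries plus 1. *Zfp938* is brightest in mature OSNs (28.0 CPM), *Zfp945* in microvillar cells (42.2 CPM) and *Zfp937* in ensheathing glia (21.4 CPM), while the rows of *Zfp957* and *Zfp936* are dark throughout.

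The neuron lineage was compared within libraries, from GBCs and INPs as 1 group, through immature OSNs, to mature OSNs, in the 4 swap and control libraries with the library as a block (edgeR quasi-likelihood test, with a call where the adjusted p was under 0.05 and the log2 fold change over 0.58 in size). Where 4 values are given they are those of control replicates 1 and 2 and swap replicates 1 and 2, in that order. From GBCs and INPs to immature OSNs, 26 members were tested, 4 rose and 6 fell. Over all 12826 genes tested 26.1% rose and 26.9% fell, so the members' counts lay below or near that background. The median log2 fold change was -0.04 for the members and -0.01 for all genes. Of 249 other Zfp genes, 27 rose and 40 fell. These directions moved with the gate: under a gate by standardized marker mean, 45 of 263 other Zfp genes rose and 29 fell. The members' median was then 0.15.

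The members that rose on leaving the progenitor state were led by *Zfp941*. It read 1.43, 2.06, 1.93 and 1.89 CPM in GBCs and INPs and 5.57, 5.47, 8.22 and 9.39 in immature OSNs, with no overlap between the stages (log2 fold change 1.83 ± 0.31 SE, edgeR adjusted p = 0.0015). *Zfp948* went from 6.69, 3.78, 3.85 and 4.92 CPM to 15.4, 12.2, 14.0 and 14.98 (1.45 ± 0.21, edgeR adjusted p = 0.00059). It was at its peak in immature OSNs, and 4 of 4 libraries were lower again in mature OSNs, by -0.49 on the log2 scale, short of the 0.58 that a call asked for. *Zfp938* rose by 0.65 and *Zfp949* by 0.67, in 4 of 4 libraries each.

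The members that fell were led by *Zfp932*, which with its near copy *Gm15446* is known for repressing endogenous retroviruses. It read 16.02, 12.03, 19.3 and 9.83 CPM in GBCs and INPs and 2.61, 3.39, 3.75 and 2.91 in immature OSNs (log2 fold change -2.29 ± 0.24 SE, edgeR adjusted p = 0.00014). The progenitor values were all above the immature ones. *Gm15446*, which holds 62.4% of the 31-base words of *Zfp932*, also had its highest values in GBCs and INPs (6.45, 1.72, 3.85 and 3.78 CPM, against 0.52 to 1.07 in immature OSNs), and how reads were shared between the pair was not tested. *Zfp953* went from 4.06, 5.84, 5.78 and 3.78 CPM to 0.71, 1.82, 1.33 and 1.79 (-1.95 ± 0.40, edgeR adjusted p = 0.0036). *Zfp950* fell from a mean of 26.1 to 13.9 CPM (-1.05 ± 0.16, edgeR adjusted p = 0.00084). *Zfp930*, *Zfp952* and *Zfp961* fell by 0.82, 0.72 and 0.82 on the log2 scale, the first pair in 4 of 4 libraries and *Zfp961* in all but 1. The calls of *Zfp930*, *Zfp938*, *Zfp949*, *Zfp952* and *Zfp961* were lost under other settings, with adjusted p of up to 0.082, 0.054, 0.079, 0.13 and 0.18.

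From immature to mature OSNs 27 members were tested, 3 rose and 1 fell, against 19.6% and 19.3% of 13334 genes. Fewer members passed than the background share would give in either direction, and their median log2 fold change was 0.03 against -0.01 for all genes. *Zfp938* rose a second time, from 22.3, 18.0, 20.8 and 15.9 CPM to 34.6, 21.3, 29.4 and 26.0 (0.69 ± 0.10 SE, edgeR adjusted p = 0.0022). Each library was higher in the mature cells, although the ranges of the stages overlapped. *Zfp932* recovered part of its loss, from a mean of 3.16 to 5.16 CPM (0.86 ± 0.17, edgeR adjusted p = 0.0073), and *Zfp944* went from 12.1 to 16.7 CPM (0.65 ± 0.12, edgeR adjusted p = 0.0051). *Zfp934* was the member that fell, from 2.73, 3.13, 4.71 and 2.91 CPM to 0.91, 0.89, 2.65 and 1.22 (-1.18 ± 0.26, edgeR adjusted p = 0.011). *Zfp943*, which shares promoter sequence with *Zfp944*, read 0.54 ± 0.10, past the p threshold but not the fold threshold. With the control libraries alone, *Zfp932* and *Zfp944* lost their calls, with adjusted p of up to 0.071 and 0.082. Of 262 other Zfp genes, 11 rose and 63 fell over this step.

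Mature OSNs and sustentacular cells were compared in the same way. Of 27 members, 7 were higher in mature OSNs and 5 lower, against 35.2% and 34.6% of 14097 genes, again below the background. The neuron side included *Zfp940*, with 5.68, 4.96, 5.31 and 4.24 CPM in mature OSNs and 1.01, 0.98, 1.07 and 1.08 in sustentacular cells (log2 fold change 2.28 ± 0.25 SE, edgeR adjusted p = 5.7e-05). *Zfp941* (1.95), *Zfp948* (1.35), *Zfp938* (1.01) and *Zfp944* (0.68) were higher in 4 of 4 libraries and were called under each of 10 alternatives. *Zfp963* (0.75) and *Zfp954* (0.59) were called here but not under 5 and 4 of 10 alternatives.

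On the sustentacular side *Zfp937* had the widest gap, 10.8, 21.4, 18.5 and 21.5 CPM against 1.67, 1.08, 1.93 and 2.04 in mature OSNs (-3.39 ± 0.25 SE, edgeR adjusted p = 4.5e-06). The lowest sustentacular value was several times the highest neuronal one. *Zfp945* (-1.43), *Zfp932* (-1.35), *Zfp953* (-1.77) and *Zfp952* (-0.99) were lower in mature OSNs in 4 of 4 libraries. Of 274 other Zfp genes, 63 were higher and 71 lower. *Zfp949*, at -0.52, met the p threshold alone (edgeR adjusted p = 0.031).

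**Figure D2:**
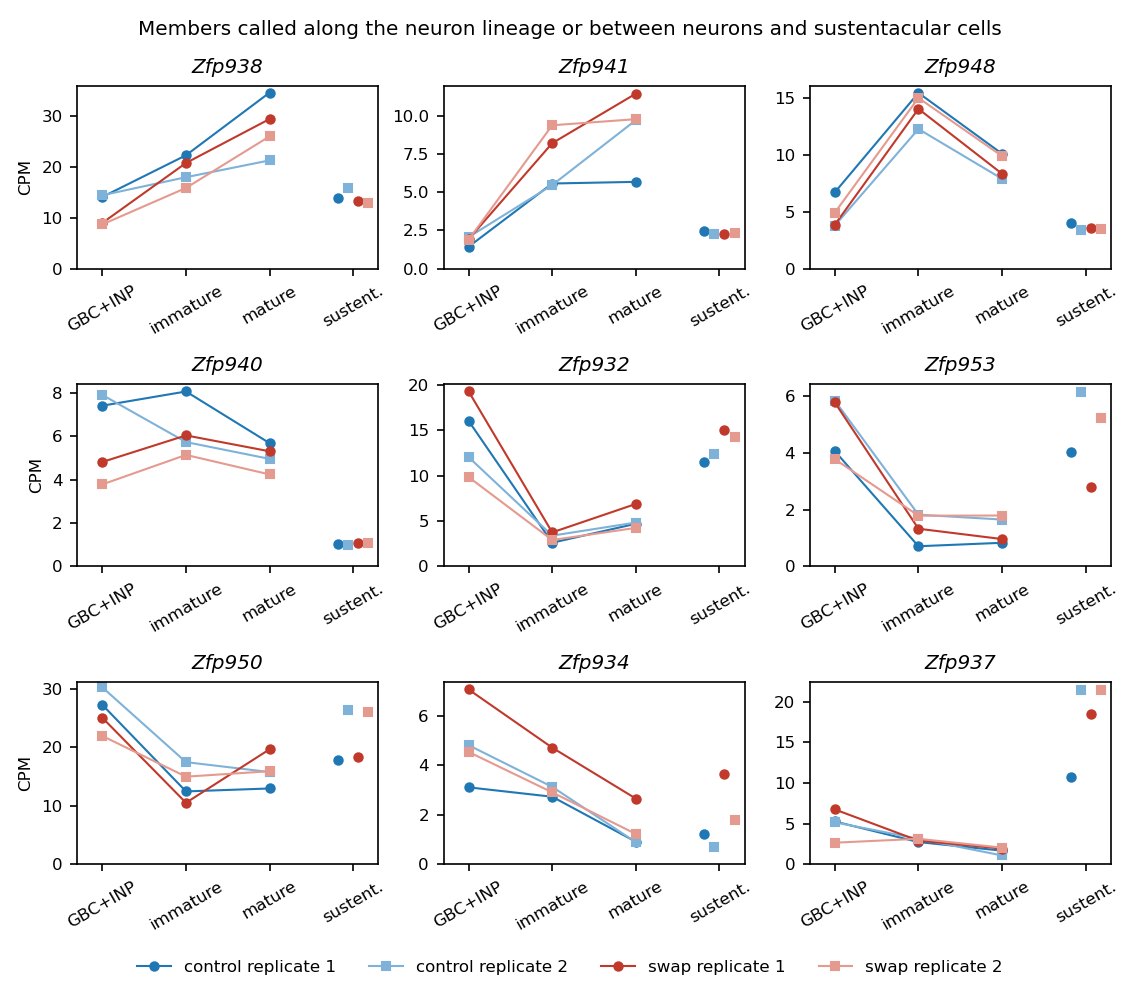
CPM of 9 members (panels) in GBCs and INPs, immature OSNs, mature OSNs and, as separate points, sustentacular cells, with 1 line per library and blue for control, red for swap. *Zfp938* climbs at each step (mean 11.6, 19.2 and 27.8 CPM), *Zfp948* peaks in immature OSNs (14.2 CPM), *Zfp932* drops from 14.3 to 3.16 CPM, and *Zfp937* stands apart in sustentacular cells (18.1 CPM).

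The partners of KRAB proteins were followed along the same steps, as a list of 15 genes. From GBCs and INPs to immature OSNs 1 of 15 rose (*Fam208a*, a subunit of the HUSH silencing complex) and 6 fell, among them *Trim28* itself, *Cbx3* and *Cbx5*, which encode HP1γ and HP1α, the nucleosome remodeller *Chd3*, the deacetylase *Hdac1* and *Morc3*. All these comparisons pooled control and swap libraries, which differ in *Cbx1* and *Cbx5* by design. *Cbx5* went from 95.4 and 212 to 31.7 and 48.2 CPM in the controls and from 243 and 270 to 103 and 128 in the swap. *Trim28* read 127, 177, 149 and 149 CPM in the progenitors, 59.1, 76.1, 58.6 and 72.0 in immature OSNs and 38.9, 38.7, 42.1 and 37.4 in mature OSNs. It fell at both steps, by 1.29 and 0.59 on the log2 scale. From immature to mature OSNs 1 of 15 rose (*Hdac1*) and 5 fell (*Chd4*, *Hdac2*, *Morc3*, *Smarcad1* and *Trim28*). Between mature OSNs and sustentacular cells 4 were higher and 6 lower. Of all genes tested, 26.1% rose and 26.9% fell at the first step, 19.6% and 19.3% at the second, and 35.2% were higher and 34.6% lower in the last comparison, so the counts of the last lay near the background. The members' own sum in the controls was 2.57 per 10000 UMIs in GBCs and INPs, 2.24 in immature OSNs and 2.26 in mature OSNs.

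The exchange of HP1β for HP1α was first checked on its own genes. *Cbx1* read 80.4 and 155 CPM in mature OSNs of the controls and 0.96 and 3.18 in the swap libraries (log2 fold change -5.77, edgeR adjusted p = 0.11), and in sustentacular cells 63.5 and 34.05 against 0.54 and 1.08 (-5.85, edgeR adjusted p = 0.038). *Cbx5* read 19.5 and 28.3 CPM in control mature OSNs and 74.9 and 88.5 in swap (1.75, edgeR adjusted p = 0.19), and in sustentacular cells 92.0 and 147 against 141 and 188 (0.52, edgeR adjusted p = 1.0). All 4 libraries thus matched their labels, although the test at 2 libraries against 2 did not call the change of *Cbx1* in mature OSNs. *Trim28* and *Setdb1* differed by 0.00 and 0.04 on the log2 scale in mature OSNs and by 0.18 and 0.13 in sustentacular cells.

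Whether the zinc finger genes were derepressed in the swap was asked in 4 cell groups. In mature OSNs 0 of 27 tested members were higher and 0 lower, against 0% and 0% of 12525 genes by the same edgeR test, and 0 members had an unadjusted p under 0.05, against 328 genes (2.62%). DESeq2 called 63 genes higher and 123 lower there, with 0 members. In immature OSNs 0 of 26 members were called in either direction, against 0% and 0% of 11988 genes, and 1 of 26 had an unadjusted p under 0.05, against 2.19% of genes. In GBCs and INPs 0 of 23 were called, against 0.328% of 11276 genes higher and 0.0621% lower, and 0 had an unadjusted p under 0.05, against 9.29% of genes. In sustentacular cells 0 of 26 were called, against 0.00818% of 12228 genes higher and 0.00818% lower, and 2 of 26 (7.69%) had an unadjusted p under 0.05, against 2.05% of genes. Of this pair *Zfp934* was higher and *Zfp949* lower in the swap. The member in immature OSNs was *Zfp951*, which was higher. It held 1 and 6 UMIs in the controls and 35 and 21 in the swap there. The filter on low counts was thus passed by the swap libraries alone. DESeq2 called 0 members in each of these groups too.

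A count of 0 calls leaves room for changes of some size. In mature OSNs the 95% interval lay below a 2-fold rise for 16 of 27 members and within a 2-fold change both ways for 11. In sustentacular cells these numbers were 15 and 10 of 26, in immature OSNs 13 and 10 of 26, and in GBCs and INPs 15 and 3 of 23, the weakest limit of the 4 groups. For the other members the interval of these libraries reached past a 2-fold change. In genes simulated on these mature OSN counts, 3 of 50 with a 2-fold change and 20 of 50 with a 4-fold change were recovered. The changed genes were drawn from all genes tested and given the same variability. The recovery at the members' own levels and variability was therefore not measured.

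The members' summed level overlapped between swap and control in mature OSNs and in sustentacular cells, but not in the other groups. In mature OSNs it was 2.20 and 2.33 per 10000 UMIs in control replicates 1 and 2 and 2.47 and 2.23 in swap replicates 1 and 2. The swap library values straddled those of the second control. In sustentacular cells it was 2.40 and 2.67 against 2.21 and 2.65, which overlapped as well. The differences of 0.09 and -0.11 per 10000 were smaller than the spread within the swap group in both types, and an exact permutation test of 2 against 2 cannot give a p under 0.333. In immature OSNs the sums were 2.16 and 2.32 against 2.45 and 2.37, and in GBCs and INPs 2.51 and 2.64 against 2.25 and 2.11, without overlap and in opposite directions. Within INPs alone the sums were 2.66 and 2.74 against 2.64 and 2.65, and within GBCs alone 2.35 and 2.54 against 2.16 and 1.73. Both swap libraries were lower in GBCs. In INPs they were lower by less than counting error, with intervals of 2.45 to 2.89 in control replicate 1 and 2.35 to 2.97 in swap replicate 2. INPs were 222 of 315 and 107 of 157 of these cells in the controls and 58 of 144 and 90 of 147 in the swap, and the part of this share in the pooled difference was not tested. The other Zfp genes summed to 49.7 and 61.2 per 10000 UMIs against 53.8 and 61.5 in immature OSNs. In GBCs and INPs they summed to 58.2 and 72.1 against 45.9 and 58.4. Within INPs alone they summed to 68.0 and 81.8 against 71.3 and 77.2, and within GBCs alone to 48.2 and 62.2 against 40.1 and 44.9. Of these, only the GBC values did not overlap.

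Markers of another cell type moved with the swap in several of these groups. The 6 neutrophil markers summed to 95.6 and 22.9 CPM in control GBCs and to 2232 and 2671 CPM in swap GBCs, chiefly *Ltf* (1816 CPM) in swap replicate 1 and *S100a8* and *S100a9* (1266 and 1401 CPM) in swap replicate 2, while *Retnlg*, *Camp* and *Ngp* stood between 0 and 5.93 CPM in all 4 libraries. The T or NK markers of the same GBCs summed to 6.76 and 0.69 CPM against 51.8 and 161 CPM. Their INP markers summed to 3462 and 4354 CPM in the controls and to 1386 and 2243 CPM in the swap. In swap replicate 1 alone the HBC markers of these GBCs reached 280 CPM and the Bowman gland markers 384 CPM. The other swap and control libraries read 2.77 to 47.3 and 17.5 to 73.9 CPM. In sustentacular cells the neutrophil markers summed to 260 and 308 CPM in the controls and to 1943 and 1087 CPM in the swap. Nearly all of that was *Ltf*, which encodes the secreted protein lactotransferrin, and the other 5 markers summed to 20.9 and 33.5 CPM against 45.9 and 30.6. In immature OSNs the sum was 23.5 and 27.4 against 101 and 96.6 CPM, and in mature OSNs 51.4 and 33.2 against 119 and 45.4. Cells with any neutrophil marker at 2 or more UMIs were 5.5% and 11.4% of control and 49.0% and 18.1% of swap sustentacular cells. Among GBCs they were 4.30% and 4% against 23.3% and 21.1%, so leaving them out removed unequal shares of the groups. Without the cells that held any neutrophil marker at 2 or more UMIs, an alternative chosen after seeing the data, the members' sums were 2.42 and 2.51 against 2.15 and 1.85 per 10000 UMIs in GBCs, 2.67 and 2.83 against 2.56 and 2.71 in INPs, 2.55 and 2.67 against 2.25 and 2.27 in GBCs and INPs, and 2.43 and 2.69 against 2.29 and 2.77 in sustentacular cells. In immature OSNs they were 2.15 and 2.31 against 2.45 and 2.38. The swap and control values still did not overlap in GBCs, in GBCs and INPs and in immature OSNs, but overlapped in INPs alone, and 0 members were called in each of the 4 groups. Whatever other part these cells have in the results was not tested.

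The median log2 fold change of the members was 0.10 in mature OSNs (16 of 27 above 0), against -0.02 for all genes and 0.00 for 257 other Zfp genes. It was 0.13 in immature OSNs (17 of 26), against 0.00 for all genes and 0.08 for other Zfp genes. In GBCs and INPs it was -0.18 (8 of 23), against -0.01 and -0.25, and in sustentacular cells 0.04 (15 of 26), against 0.00 and -0.06. The medians moved with single libraries. In sustentacular cells that of the members was -0.10 without swap replicate 2, -0.02 without control replicate 1, 0.15 without swap replicate 1 and 0.19 without control replicate 2, and it was also 0.19 without the cells that held a neutrophil marker. The direction there thus rested on which libraries were used. In mature OSNs the members' median stayed between 0.08 and 0.17, but that of the other Zfp genes ran from -0.10 without control replicate 1 to 0.20 without control replicate 2, where it was above the members' 0.17. In immature OSNs (0.03 against 0.15) and in GBCs and INPs (-0.30 against -0.09) the members' median was below that of the other Zfp genes without swap replicate 1.

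Counting libraries that did not overlap, without regard to the size of the gap, 8 of 27 members (29.6%) had both swap libraries above both controls in mature OSNs, against 10.5% of all genes tested and 12.8% of other Zfp genes. They were *Zfp934*, *Zfp935*, *Zfp937*, *Zfp939*, *Zfp941*, *Zfp946*, *Zfp950* and *Zfp951*. Only *Zfp949* had both below, 3.70% of members against 8.21% of genes. In sustentacular cells 6 of 26 (23.1%) were above, against 7.81% of genes and 3.88% of other Zfp genes. These were *Zfp932*, *Zfp934*, *Zfp935*, *Zfp951*, *Zfp956* and *Zfp959*. Below both controls were 3 of 26 (11.5%), *Zfp938*, *Zfp949* and *Zfp954*, against 12.1% of genes. *Zfp934*, *Zfp935* and *Zfp951* were above in both types. *Zfp934* and *Zfp935* are neighbours on chromosome 13, 49.9 kb apart, and both share 3′ sequence with other genes. The share of members above the controls was higher than that of all genes in both types, but no member among them passed the test, and these counts carry no p. In GBCs and INPs both swap libraries lay below both controls for *Zfp938*, *Zfp940*, *Zfp943*, *Zfp944*, *Zfp946*, *Zfp949*, *Zfp950* and *Zfp958*. They lay above for *Zfp956* and, on few UMIs, *Zfp960*. In immature OSNs they lay above for *Zfp935*, *Zfp941*, *Zfp951*, *Zfp958* and *Zfp963* and below, on few UMIs, for *Zfp947*. The share over all genes was not counted in these last groups, so these lists are not set against a background. In GBCs and INPs 9.29% of all genes had an unadjusted p under 0.05. The other Zfp genes had a median log2 fold change of -0.25 there.

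*Zfp951*, on chromosome 5, had the largest positive value in mature OSNs, immature OSNs and the progenitors. In mature OSNs control replicate 1 read 0.15 CPM (2 UMIs) and control replicate 2 2.86, and the swap libraries 3.86 and 4.16. The first control alone was near 0 (log2 fold change 1.40, 95% interval -1.60 to 4.40). In immature OSNs the 4 values were 0.12, 1.56, 4.23 and 4.69 CPM (2.66, 0.35 to 4.96, edgeR adjusted p = 1.0), and in sustentacular cells 0.22, 1.68, 1.71 and 3.25 (1.48, -0.42 to 3.39). In immature OSNs the gene passed the filter on low counts through the swap libraries alone. Counted over all barcodes, the gene had 9 UMIs in control replicate 1, 12 in the gg8-tTA library and 10 in the gg8-tTA; tetOP2iresGFP library, and 135, 173 and 243 in control replicate 2 and swap replicates 1 and 2. The last group is that of the libraries whose labels carry the swap allele, with or without Cre. Without control replicate 1 the mature OSN value was 0.50, and without control replicate 2 it was 4.55. What part the allele or the line that carries it has in these counts was not tested.

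*Zfp949*, on chromosome 9, had the largest negative value in mature OSNs and sustentacular cells. It read 20.8 and 12.3 CPM in control mature OSNs and 7.36 and 9.79 in swap (log2 fold change -0.99, 95% interval -2.06 to 0.08). In sustentacular cells the values were 48.2, 13.5, 9.75 and 11.6 CPM (-1.51, -2.82 to -0.20, edgeR adjusted p = 1.0). Control replicate 1 stood apart in both. In GBCs and INPs, where it was the second largest negative value, the gene read 11.0 and 9.62 CPM in the controls, which lay close together, and 5.14 and 6.81 in swap (-0.72, 95% interval -1.69 to 0.25, and -0.52 without control replicate 1). In immature OSNs the 4 values were 16.5, 13.0, 12.1 and 13.2 CPM, which overlapped (-0.26, -0.97 to 0.45). The gg8-tTA and gg8-tTA; tetOP2iresGFP libraries read 19.5 and 19.2 CPM in sustentacular cells and 11.0 and 12.2 in mature OSNs. Without control replicate 1 the sustentacular value was -0.25. Without control replicate 2 it was -2.17 and was called (edgeR adjusted p = 4.2e-06), with the single control left assumed to vary like the swap libraries.

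*Zfp934* read 0.91 and 0.89 CPM in control mature OSNs and 2.65 and 1.22 in swap (log2 fold change 1.05, 95% interval -0.44 to 2.53), and in sustentacular cells 1.24 and 0.70 against 3.64 and 1.77 (1.49, 0.02 to 2.96, edgeR adjusted p = 1.0). Swap replicate 1 was the highest library in both. Without it the values were 0.43 and 0.85, and without the cells that held a neutrophil marker the sustentacular value was 1.01 (-0.58 to 2.60). *Zfp956* read 2.36 and 2.24 CPM in control sustentacular cells and 3.001 and 5.51 in swap (0.92, -0.17 to 2.01), and in mature OSNs the groups overlapped. *Zfp941*, the member that rose most on the way to immature OSNs, read 5.57 and 5.47 against 8.22 and 9.39 CPM there (0.65, -0.18 to 1.47). In mature OSNs it read 5.68 and 9.73 against 11.5 and 9.79 (0.44, -0.49 to 1.37). *Zfp939* in mature OSNs (0.66) and *Zfp963* in immature OSNs (0.50) were the remaining members among the 3 largest rises of these types.

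Among the 3 largest negative values, *Zfp954* and *Zfp942* in mature OSNs (-0.28 and -0.20), *Zfp940* and *Zfp950* in immature OSNs (-0.33 and -0.24) and *Zfp954* and *Zfp953* in sustentacular cells (-0.31 and -0.30) all had intervals that included 0. In GBCs and INPs *Zfp940* read 7.41 and 7.91 against 4.82 and 3.78 CPM (-0.74, -1.79 to 0.31), and *Zfp958* 12.7 and 13.4 against 10.3 and 5.67 (-0.61, -1.60 to 0.37). Within INPs alone *Zfp940* read 10.4 and 11.6 against 8.57 and 6.35 CPM, and *Zfp958* read 15.8 ± 1.1 in the controls against 10.3 and 9.08, on 5 to 35 UMIs per library. Within GBCs alone *Zfp940* read 4.34 and 4.16 against 3.95 and 1.95 CPM and *Zfp958* 8.69 and 11.8 against 10.3 and 3.24. *Zfp951* (0.76), *Zfp934* (0.66) and *Zfp930* (0.32) had the largest positive values there, and that of *Zfp934* was 0.29 without the cells that held a neutrophil marker.

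**Figure D3:**
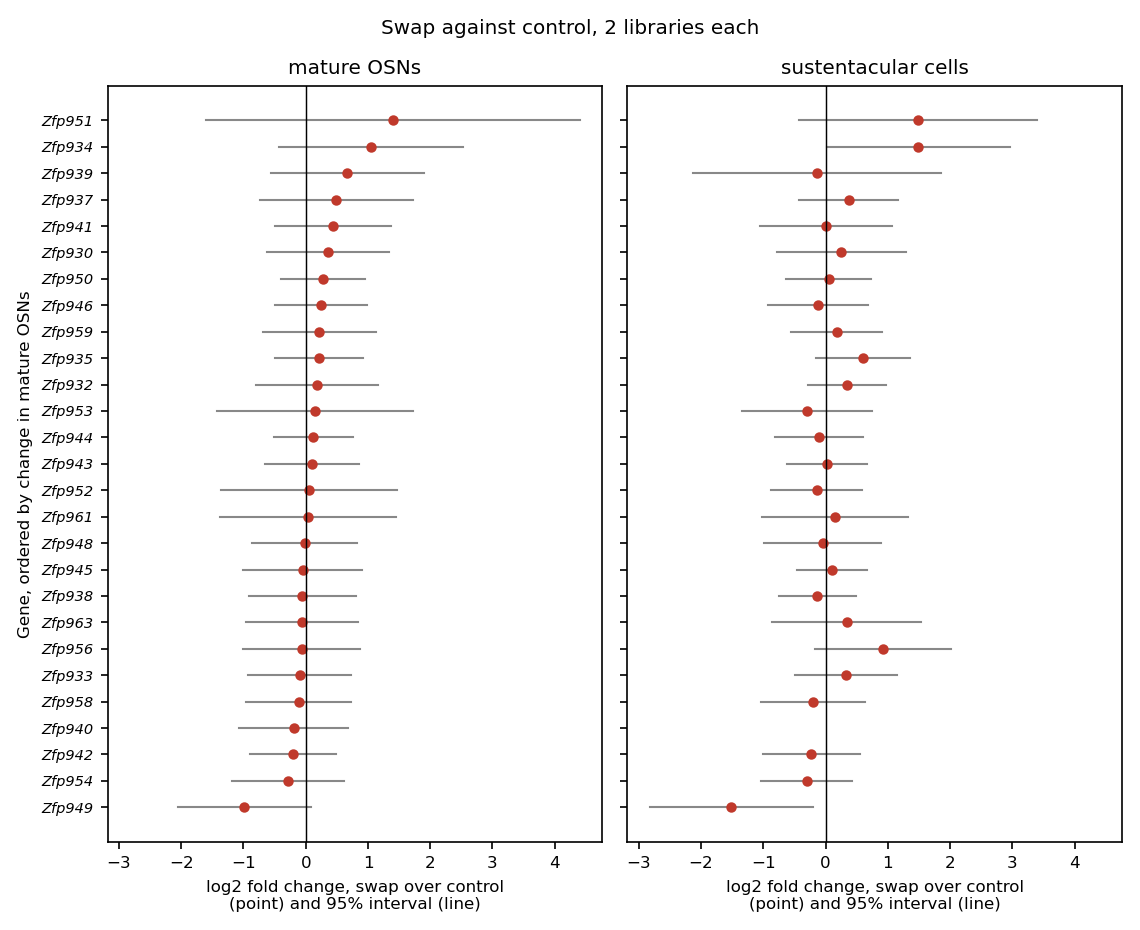
Log2 fold change of swap over control (points) with 95% intervals (lines) for the members tested in mature OSNs (left) and sustentacular cells (right), 2 libraries per group, ordered by the value in mature OSNs. Most intervals span 0, and *Zfp951* (1.40 and 1.48), *Zfp934* (1.05 and 1.49) and *Zfp949* (-0.99 and -1.51) lie at the ends in both.

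**Figure D4:**
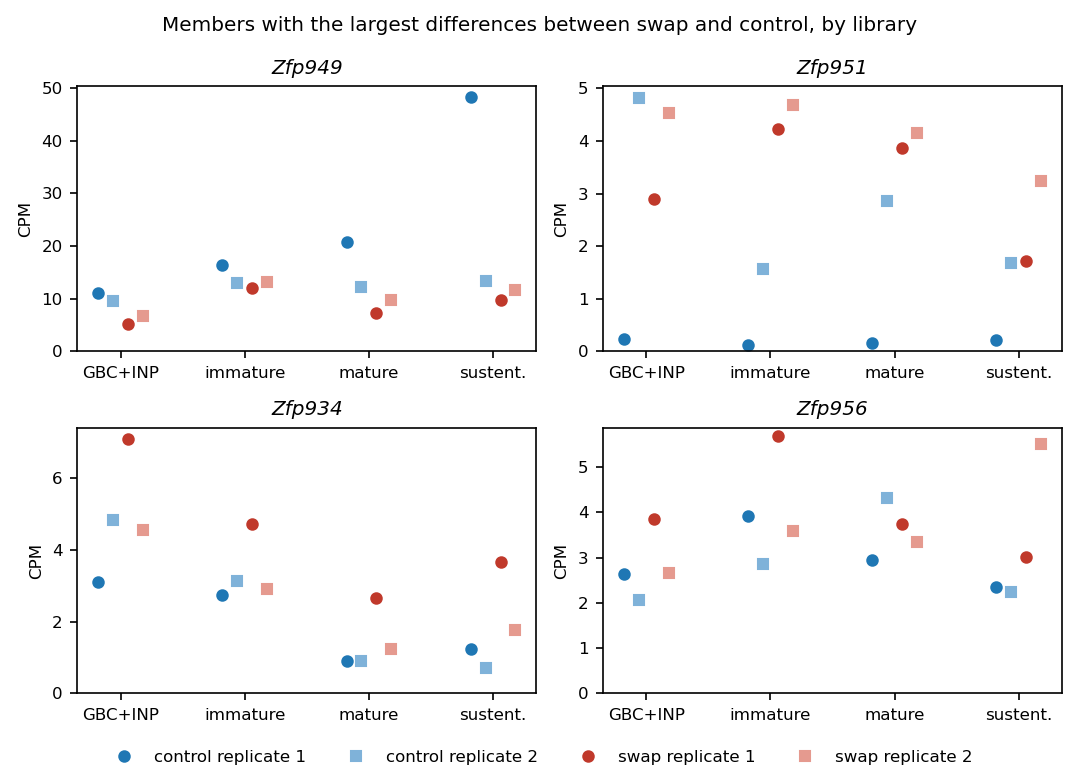
CPM of *Zfp949*, *Zfp951*, *Zfp934* and *Zfp956* in GBCs and INPs, immature OSNs, mature OSNs and sustentacular cells, 1 point per library (blue control, red swap, circles replicate 1, squares replicate 2). Control replicate 1 alone is high for *Zfp949* in sustentacular cells (48.2 CPM) and alone is near 0 for *Zfp951* (0.15 CPM in mature OSNs).

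Whether the swap acted differently in mature OSNs and in sustentacular cells was tested as an interaction. It was called for 0 of 27 members in either direction, against 0% higher and 0% lower of 14097 genes by edgeR, with 0 members and 533 genes (3.78%) at an unadjusted p under 0.05 and 24 genes and 0 members called by DESeq2. The 95% interval lay within a 2-fold difference both ways for 10 of 27 members and reached past it for the others. The difference in *Cbx5* was not called by edgeR either (log2 fold change 1.20, edgeR adjusted p = 0.30). Of the 15 KRAB partners, *Cbx1* was called lower in the swap in GBCs and INPs and in sustentacular cells, and 0 of the others in any of the 4 groups.

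The gg8-tTA and gg8-tTA; tetOP2iresGFP libraries, 1 of each, were set side by side in mature OSNs without a test. The members summed to 2.11 per 10000 UMIs (exact Poisson 95% interval 2.00 to 2.21, counting error only) and to 1.83 (1.74 to 1.93), intervals that did not meet. Cells with any neutrophil marker at 2 or more UMIs were 12.3% and 35.4% of these mature OSNs. Without them the sums were 2.13 and 1.75, and what other part they have was not tested. Of the 24 members with at least 10 UMIs in the pair, 1, *Zfp930*, had counting intervals that did not meet, against 11.8% of 13300 genes. Those genes were not matched to the members for UMIs, on which such a gap depends. *Zfp930* had 67 UMIs, or 8.56 CPM (6.64 to 10.9), without the P2 transgene and 13 UMIs, or 1.78 CPM (0.95 to 3.04), with it. In immature OSNs of the same libraries it read 7.71 and 6.18 CPM, and in sustentacular cells 6.03 and 6.01. The gap was thus seen in mature OSNs and not in immature OSNs or sustentacular cells. Over all barcodes *Zfp930* had 251 and 141 UMIs, and the remaining types were not compared. The swap and control libraries read 3.86 to 7.48 CPM in mature OSNs.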

How the data were processed

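Olfactory epithelium was dissociated with papain and captured with the 10x Genomics Chromium v3 kit. The authors deposited filtered matrices of raw UMI counts per gene and cell barcode, aligned to mm10 (GRCm38). File headers name Cell Ranger 3.1.0 for the swap and control libraries, and intronic reads were counted.

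Barcodes under 1000 UMIs or 500 genes were left out, and the scrublet scores of scanpy 1.11.5 removed 2.07% to 4.07% of them as doublets. A cell was gated to a type by at least 3 of that type's markers with 2 or more UMIs each. Cells of several types were dropped, and neurons were split by *Omp* against *Gap43*. UMIs were summed per library and type. Sums were tested with edgeR 4.0.16 (quasi-likelihood, TMM, filterByExpr) over all genes that passed, with Benjamini-Hochberg adjustment. The filter passed 23 to 27 of the 33 members, and the others have counts only. Lineage comparisons took the library as a block. The interaction was tested over the swap and control libraries of both types.

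Alternatives were DESeq2 1.42.0, RLE size factors, no filter on low counts, doublets kept, a gate by standardized marker mean, control libraries only, a minimum of 3000 UMIs per cell for the summed level, no cells with a neutrophil marker at 2 or more UMIs (chosen after seeing the data), a replicate block and each library left out in turn. Scripts were tested on simulated counts: of 200 changed genes, 115 were recovered in the mature OSN swap comparison, 143 in the sustentacular one, 160 in the interaction and 179 between mature and immature OSNs. The changes were 2-fold for 50 of these genes and larger for the rest. Of the 50, in the same order, 3, 5, 25 and 30 were recovered. Unchanged genes called numbered 4, 15, 3 and 1.

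Members named with values are the 10 highest in control mature OSNs, the 5 highest in sustentacular cells, those called in a comparison (at most 5 per direction where more than 10 are called) and the 3 largest in each direction of each swap comparison. Others, such as *Zfp931*, *Zfp936*, *Zfp957*, *Zfp959*, *Zfp960* and *Zfp964*, were named after their values were seen. The driver of the Cre allele is not reported here. The members and lists were chosen with earlier results of these data known. Intervals on single libraries cover counting error only. UMIs count molecules, and depth is given with the libraries.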

Additional observations from a re-analysis of the deposited data

How the results depend on the processing

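With 2 libraries per group, counts of calls moved with single libraries. The count of members called between swap and control was 0 under every alternative in mature OSNs, immature OSNs, GBCs and INPs and in the interaction. In sustentacular cells it was 1, *Zfp949*, with no filter on low counts (edgeR adjusted p = 0.013) and 0 to 1 when each library was left out in turn, the 1 being without control replicate 2. From GBCs and INPs to immature OSNs the 10 calls became 6 to 9 when a library was left out, 6 without swap replicate 1, and 7 to 10 otherwise. From immature to mature OSNs the 4 calls became 2 with the control libraries only and 3 to 5 with a library left out. Between mature OSNs and sustentacular cells the 12 calls became 10 to 13. Of the 26 lineage calls, 17 were kept under all alternatives. Among the 3 largest values in each direction of each swap comparison, leaving out a library turned the sign of 5: *Zfp954* in mature OSNs (-0.57 to 0.079), *Zfp940* in immature OSNs (-0.59 to 0.0078), *Zfp951* (-0.21 to 3.76) and *Zfp930* (-0.17 to 0.66) in GBCs and INPs, and *Zfp953* in sustentacular cells (-0.78 to 0.058). The difference in summed level ranged from -0.03 to 0.21 per 10000 UMIs in mature OSNs and from -0.33 to 0.11 in sustentacular cells. Under a gate by standardized marker mean, with at least 3000 UMIs per cell and without cells that held a neutrophil marker, all chosen after seeing the data for this count, 7, 7 and 6 of 27 members had both swap libraries above both controls in mature OSNs, against 10.5%, 10.5% and 10.4% of genes, and 7, 6 and 6 of 26 in sustentacular cells, against 6.80%, 7.79% and 7.56%. Below both controls they were 2, 1 and 1, against 8.08%, 8.12% and 8.45%, and 3, 3 and 3, against 9.58%, 11.8% and 10.8%. The causes were not tested.

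Same-numbered swap and control libraries deviated together from their group means, with a correlation over genes of 0.25 in mature OSNs, 0.29 in immature OSNs, 0.41 in GBCs and INPs and 0.54 in sustentacular cells, over 2 pairs. With the replicate number as a block, 0 members were called in each of the 4 groups, and over all genes 0, 52, 266 and 17 were called, against 0, 0, 44 and 2 without it. DESeq2 called 186, 73, 273 and 32. With a library left out, 129 to 221, 107 to 207, 12 to 932 and 64 to 135 genes were called, a fit in which the single library of a group is assumed to vary like the pair of the other.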

Other observations

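Several members had lower counts in the gg8-tTA and gg8-tTA; tetOP2iresGFP libraries than in the 4 swap and control libraries, a difference between lines that the design does not test. They were picked after their values were seen. In mature OSNs *Zfp933* read 3.83 and 2.87 CPM in this pair and 7.43 to 11.1 in the other 4, and in sustentacular cells 2.01 and 3.94 against 9.10 to 16.8. *Zfp939* had 1 and 0 UMIs in mature OSNs (0.13 and 0 CPM) against 0.89 to 1.71 CPM, and *Zfp940* read 0 and 0.19 CPM in sustentacular cells against 0.98 to 1.08. *Zfp954* was higher in the pair, 18.2 and 19.8 CPM in mature OSNs against 10.4 to 16.8. The line, the date of the experiment and the filter on barcodes cannot be told apart. Markers of other types were also higher in mature OSNs of the pair. Sustentacular markers summed to 250 and 243 CPM, against 51.4 to 77.5 in the swap and control libraries. Fibroblast markers summed to 281 and 197 CPM, against 5.66 to 21.7. What part this has in the differences was not tested.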
